A study of Homo sapiens with 8 samples.

Results

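The tripartite motif (TRIM) genes encode a large family of ubiquitin ligases, and the family was described here across HCT116 cells with and without interferon-gamma (IFN-γ). Its members were all gene IDs of the count table that GENCODE names as protein-coding genes called TRIM with a number, whatever their level, which gave 78 of 40295 genes. Of these, 47 had enough counts to be tested. The other 31 did not pass the filter on low counts: 17 were at 0 in every library, and the highest count of the remaining 14 in any library was 27. TRIM26, which lies in the major histocompatibility region, was among these 14, with 0 to 12 counts. Because 4712 IDs of the table have no GENCODE name, its low count cannot be read as absence of its RNA.

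HCT116 is a human colorectal carcinoma line, and the study set it beside a derivative made by CRISPR-Cas9 knock-in of E33Q in MED12, the protein that switches on the kinase of the Mediator complex. The 4 groups were knock-in (KI) cells with 5 ng/ml IFN-γ for 24 h, KI cells untreated (0 h), wild-type (WT) cells with 5 ng/ml IFN-γ for 24 h, and WT cells untreated (0 h), with 2 biological replicates each. All were grown in the same medium and sequenced as total RNA after removal of ribosomal RNA. Untreated cells were collected at 0 h, so 24 h of IFN-γ cannot be told apart from 24 h more in culture. The labels name 1 knock-in line, so E33Q cannot be told apart from other differences between the lines, and counts per gene cannot show a point change that would check the genotype.

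A classical TRIM protein joins a RING domain, which recruits a ubiquitin-loaded E2 enzyme, to B-boxes and a coiled coil. The C-terminal domain then sets the target: a PRY-SPRY domain in most members, a PHD finger and bromodomain in the chromatin regulators, and NHL repeats, COS boxes or membrane anchors in others. Several PRY-SPRY members act in antiviral defence and are known as interferon-inducible genes. IFN-γ signalling acts on genes through GAS elements in DNA, and it induces IRF1, which binds interferon-stimulated response elements (ISRE).

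The promoters of 5 tested interferon-inducible members held the ISRE core and are shown with that match in capitals, beside TRIM56, which held none. Each is 300 bases of RefSeq (GRCh38.p14), running 250 bases before to 50 bases after an annotated transcript start, written 5′ to 3′ on the gene's strand. The ISRE core searched was GAAANNGAA on both strands, which reads TTCNNTTTC on the other strand. In TRIM21 the capitals cover 2 overlapping matches, of which the first begins 17 bases after the start.
TRIM21, chr11:4393653-4393952, minus strand: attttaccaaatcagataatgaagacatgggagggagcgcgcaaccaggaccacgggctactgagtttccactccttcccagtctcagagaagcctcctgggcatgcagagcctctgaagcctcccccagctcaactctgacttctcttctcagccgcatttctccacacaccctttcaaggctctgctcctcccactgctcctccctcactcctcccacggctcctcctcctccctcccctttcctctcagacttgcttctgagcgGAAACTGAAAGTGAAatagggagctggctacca
TRIM14, chr9:98119173-98119472, minus strand: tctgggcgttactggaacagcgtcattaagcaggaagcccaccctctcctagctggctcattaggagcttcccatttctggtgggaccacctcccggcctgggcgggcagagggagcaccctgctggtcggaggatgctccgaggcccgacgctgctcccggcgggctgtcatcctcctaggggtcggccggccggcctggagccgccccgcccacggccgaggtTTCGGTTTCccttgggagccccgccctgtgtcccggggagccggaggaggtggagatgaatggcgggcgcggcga
TRIM5, chr11:5685025-5685324, minus strand: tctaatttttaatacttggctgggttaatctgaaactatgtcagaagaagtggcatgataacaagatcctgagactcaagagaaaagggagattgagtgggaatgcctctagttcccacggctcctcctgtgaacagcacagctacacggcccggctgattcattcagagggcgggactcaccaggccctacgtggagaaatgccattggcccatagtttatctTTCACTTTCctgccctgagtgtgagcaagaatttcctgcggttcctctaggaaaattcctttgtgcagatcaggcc
TRIM34, chr11:5624751-5625050, plus strand: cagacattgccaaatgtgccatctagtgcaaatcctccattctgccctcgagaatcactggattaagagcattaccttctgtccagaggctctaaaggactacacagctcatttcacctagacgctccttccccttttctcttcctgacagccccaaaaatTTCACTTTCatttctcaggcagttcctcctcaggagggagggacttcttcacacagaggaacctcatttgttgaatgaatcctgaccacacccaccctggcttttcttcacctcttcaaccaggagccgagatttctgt
TRIM69, chr15:44736278-44736577, plus strand: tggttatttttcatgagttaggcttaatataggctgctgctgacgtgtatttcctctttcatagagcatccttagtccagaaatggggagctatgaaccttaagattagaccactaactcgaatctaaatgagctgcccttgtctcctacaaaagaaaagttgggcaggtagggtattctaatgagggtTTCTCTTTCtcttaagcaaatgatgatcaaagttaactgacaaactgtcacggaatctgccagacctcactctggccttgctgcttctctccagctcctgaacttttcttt
TRIM56, chr7:101085231-101085530, plus strand: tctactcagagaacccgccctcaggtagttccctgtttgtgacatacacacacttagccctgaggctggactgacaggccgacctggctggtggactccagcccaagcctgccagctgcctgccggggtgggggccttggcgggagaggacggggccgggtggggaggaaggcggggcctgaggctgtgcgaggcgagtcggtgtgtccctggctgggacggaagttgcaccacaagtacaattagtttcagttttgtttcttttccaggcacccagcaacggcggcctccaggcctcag

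RefSeq promoters were matched for 36 of the 47 tested members, several with more than 1 start, which gave 53 windows. The ISRE core was in 8 of these 53 (15.1%), against 8.11% of all 35116 RefSeq promoters. The GAS motif, TTCNNNGAA on both strands, was in 7 of the 53 (13.2%), against 7.66% of all promoters. These windows belonged to 5 members, and overlapping windows of TRIM2 share the same match. No window of an interferon-inducible member held it, but TRIM22 had no window and was not searched. TRIM2, TRIM16 and TRIM44 were the other tested members with the ISRE core, while the windows of TRIM25 and TRIM38 held neither motif. These matches describe letters in a window and show no binding.

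The libraries held 20901909 to 28045842 estimated counts, spike-ins included, and levels are given as CPM, a count divided by its library's TMM-scaled size. Genes known to respond to IFN-γ changed in both lines: IRF1 averaged 343.9 CPM in treated and 11.4 CPM in untreated KI cells, and 348.8 CPM in treated and 12.0 CPM in untreated WT cells. Of 12 colorectal epithelial markers, 10 or 11 had counts in each library. Plasma cell markers summed to 272 to 393 CPM in 1 treated KI library, 1 untreated KI library and both untreated WT libraries, and to 1.02 to 2.20 CPM in the other 4 libraries. In WT cells this signal is in every untreated and in no treated library, so there it cannot be told apart from treatment, and its part in the TRIM values was not tested. Other leukocyte markers summed to 24.7 to 30.4 CPM in the libraries with this signal and to 4.24 to 9.14 CPM in those without. Fibroblast markers summed to 3.46 to 7.58 CPM and endothelial ones to 1.06 to 2.67 CPM over all libraries. The mean GC content of the counted genes was 47.93 to 48.12% in treated and 45.23 to 46.63% in untreated libraries. The 46.63% was that of the first untreated WT replicate, while the other untreated libraries had 45.23 to 45.45%. The TMM factor of that replicate was 0.9683, against 0.8604 to 0.8715 in the other untreated libraries. ERCC spike-in RNA took 0.228 to 0.271% of the counts of treated and 0.110 to 0.141% of those of untreated libraries.

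Both lines raised more TRIM genes than they lowered after IFN-γ. In KI cells 21 of 47 rose and 6 fell at an adjusted p under 0.05 (edgeR, adjusted over all 16519 tested genes), which is 44.7 and 12.8% of the members, against 26.4 and 25.8% of all tested genes. In WT cells 17 rose and 2 fell, or 36.2 and 4.26%, against 17.1 and 20.8% of all tested genes. The median log2 change over the 47 genes was 0.70 in KI and 0.44 in WT cells, against 0.12 and 0.08 over all tested genes. 13 members rose in both lines, which is 13 of the 21 in KI and 13 of the 17 in WT cells, and TRIM13 and TRIM23 fell in both. The same overlap over all tested genes is not given here, so it cannot be read as particular to the family. These are bulk RNA measurements, so more cells with a transcript and more transcript in each cell cannot be told apart. Scaled to the spike-ins, which leaves the median change of all genes at −0.41 in KI and −0.72 in WT cells, 5 members were higher and 9 lower in each line. That is 10.6% higher and 19.1% lower, against 3.73% higher and 33.1% lower of all tested genes in KI cells and 1.41% higher and 40.8% lower in WT cells under the same scaling. It lowered the change of TRIM21 to 1.25 in KI and 1.42 in WT cells and that of TRIM56 to 1.81 in KI and 1.22 in WT cells.

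**Figure D1:**
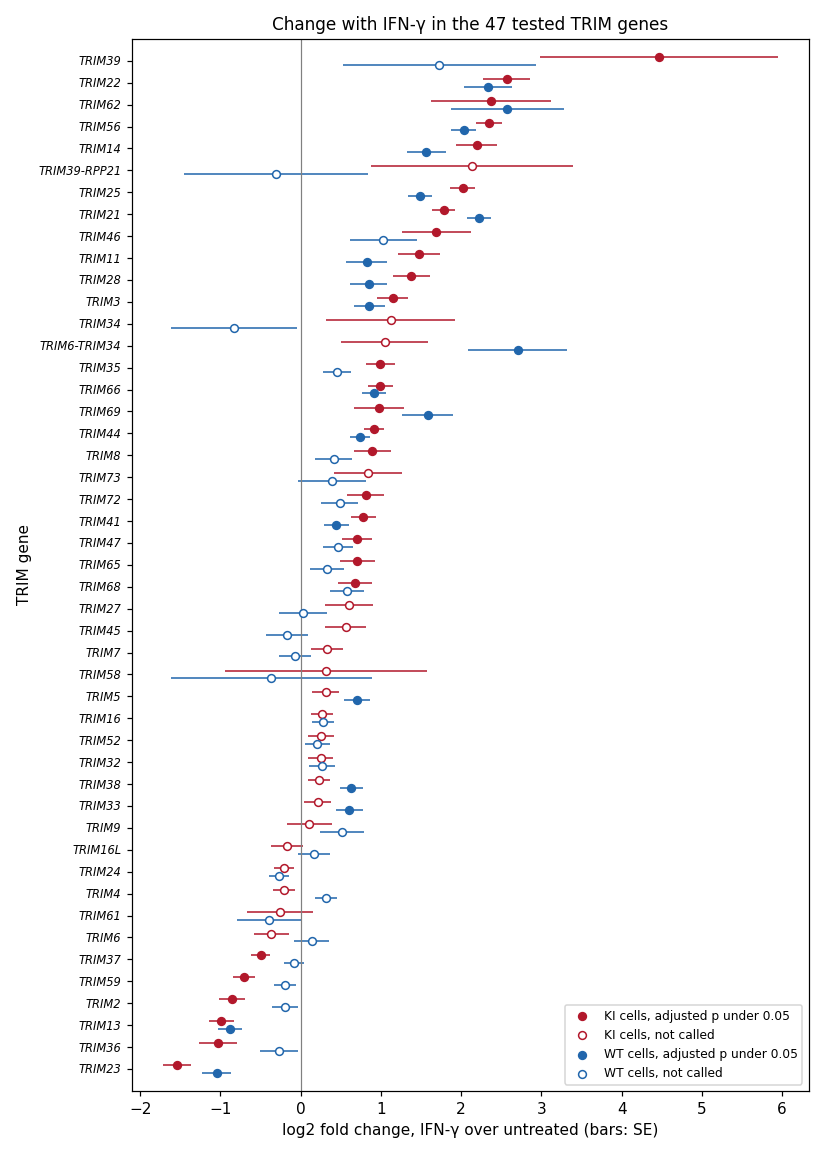
Change of the 47 tested TRIM genes with IFN-γ as log2 fold change over untreated cells (x axis), with KI cells in red above WT cells in blue for each gene, bars showing the SE and filled points an adjusted p under 0.05. TRIM21, TRIM22, TRIM25, TRIM14 and TRIM56 sit to the right in both lines, and TRIM23 and TRIM13 to the left. The fitted value of TRIM39 in KI cells rests on 2 counts in untreated cells and is no estimate of its fold.

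Among the 9 tested members known as interferon-inducible, 6 rose in KI and 8 in WT cells, and none fell. Of all tested genes 26.4% rose and 25.8% fell in KI, and 17.1% rose and 20.8% fell in WT cells. TRIM21, a cytosolic antibody receptor that ubiquitinates antibody-coated pathogens, had 92.2 and 91.9 CPM in treated KI cells, against 25.6 and 27.9 CPM in untreated KI cells. In WT cells it had 73.6 and 87.7 CPM with IFN-γ, against 16.8 and 17.7 CPM without. All treated libraries were above all untreated ones, and among untreated libraries KI was above WT. The log2 change was 1.78 ± 0.14 in KI (SE, adjusted p = 8.2e-05) and 2.22 ± 0.15 in WT cells (adjusted p = 2.68e-05).

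TRIM22, which restricts retroviruses and other viruses, had few counts without treatment. It had 18.8 and 15.0 CPM in treated KI cells, against 2.90 and 2.79 CPM in untreated KI cells. WT cells had 14.1 and 8.98 CPM with IFN-γ, against 1.89 and 2.71 CPM without. The groups by treatment did not overlap, and the treated WT libraries were the most apart from each other. It rose by a log2 change of 2.57 ± 0.29 in KI (adjusted p = 0.000212) and 2.33 ± 0.30 in WT cells (adjusted p = 0.000656).

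TRIM25, a ligase that acts in RIG-I signalling and as cofactor of the antiviral protein ZAP, rose in both lines. Treated KI cells had 261.0 and 240.1 CPM, against 68.1 and 55.8 CPM in untreated KI cells. Treated WT cells had 320.2 and 321.8 CPM, against 126.9 and 102.5 CPM in untreated WT cells. WT libraries were above KI libraries with and without IFN-γ, a difference that passed the test without it. The log2 change was 2.02 ± 0.16 in KI (adjusted p = 6.6e-05) and 1.48 ± 0.15 in WT cells (adjusted p = 0.000334). With the trend of all genes of a library on GC content and transcript length removed, it was 1.36 in KI and 0.99 in WT cells, and with spike-in scaling it was 0.66 in WT cells, each with an adjusted p under 0.05.

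TRIM14, a member without a RING that works as an adaptor of the mitochondrial protein MAVS, had 47.7 and 44.0 CPM in treated KI cells, against 11.4 and 8.78 CPM in untreated KI cells. In WT cells it had 60.5 and 46.5 CPM with IFN-γ, against 22.3 and 13.9 CPM without. Treated and untreated libraries were well apart in both lines. It rose by a log2 change of 2.19 ± 0.25 in KI (adjusted p = 0.000214) and 1.56 ± 0.24 in WT cells (adjusted p = 0.0014), and the WT call ends with spike-in scaling (0.74, adjusted p = 0.128). Of its exon bases, 7.7% are also exon of NANS on the opposite strand.

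TRIM56, a ligase linked to STING and toll-like receptor signalling, had 64.0 and 63.2 CPM in treated KI cells, against 13.7 and 11.5 CPM in untreated KI cells. WT cells had 71.7 and 66.6 CPM with IFN-γ, against 18.6 and 15.2 CPM without. Replicates were close, and all treated libraries stood above all untreated ones. The log2 change was 2.34 ± 0.16 in KI (adjusted p = 3.54e-05) and 2.03 ± 0.16 in WT cells (adjusted p = 8.16e-05). In both lines TRIM21, TRIM22, TRIM25 and TRIM56 kept an adjusted p under 0.05 with the GC and length trend removed, with spike-in scaling and without any 1 library.

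TRIM69, a microtubule-associated ligase that restricts vesicular stomatitis virus, had 14.5 and 15.6 CPM in treated KI cells, against 8.36 and 6.94 CPM in untreated KI cells. In WT cells it had 12.1 and 13.1 CPM with IFN-γ, against 2.62 and 5.81 CPM without. Untreated WT cells were lowest and their replicates differed most. It rose by 0.98 ± 0.31 on the log2 scale in KI (adjusted p = 0.0239) and by 1.58 ± 0.32 in WT cells (adjusted p = 0.00474). The KI call ends without any 1 of the 4 KI libraries, and the changes are 0.45 in KI (adjusted p = 0.279) and 0.84 in WT cells (adjusted p = 0.0503) with spike-in scaling.

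TRIM5, which binds incoming retroviral capsids, had 36.7 and 39.4 CPM in treated KI cells, against 32.3 and 29.2 CPM in untreated KI cells. WT cells had 33.7 and 35.6 CPM with IFN-γ, against 18.6 and 24.0 CPM without. Only untreated WT cells were clearly low. Its log2 change was 0.31 ± 0.16 in KI (adjusted p = 0.144) and 0.70 ± 0.17 in WT cells (adjusted p = 0.00934), where the call ends without the second treated replicate and the value is −0.08 with spike-in scaling. It passed in both lines once the GC and length trend was removed, at 0.90 in KI and 1.14 in WT cells.

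TRIM38, a ligase that dampens toll-like receptor and TNF signalling, had 92.1 and 95.7 CPM in treated KI cells, against 82.3 and 77.4 CPM in untreated KI cells. WT cells had 87.0 and 78.6 CPM with IFN-γ, against 48.4 and 58.5 CPM without. As for TRIM5, untreated WT cells stood below the other 3 groups. The log2 change was 0.23 ± 0.14 in KI (adjusted p = 0.189) and 0.63 ± 0.14 in WT cells (adjusted p = 0.0068), where it ends without the first treated replicate and is −0.145 with spike-in scaling. Removal of the GC and length trend gave a call in both lines, at 0.59 in KI and 0.79 in WT cells.

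**Figure D2:**
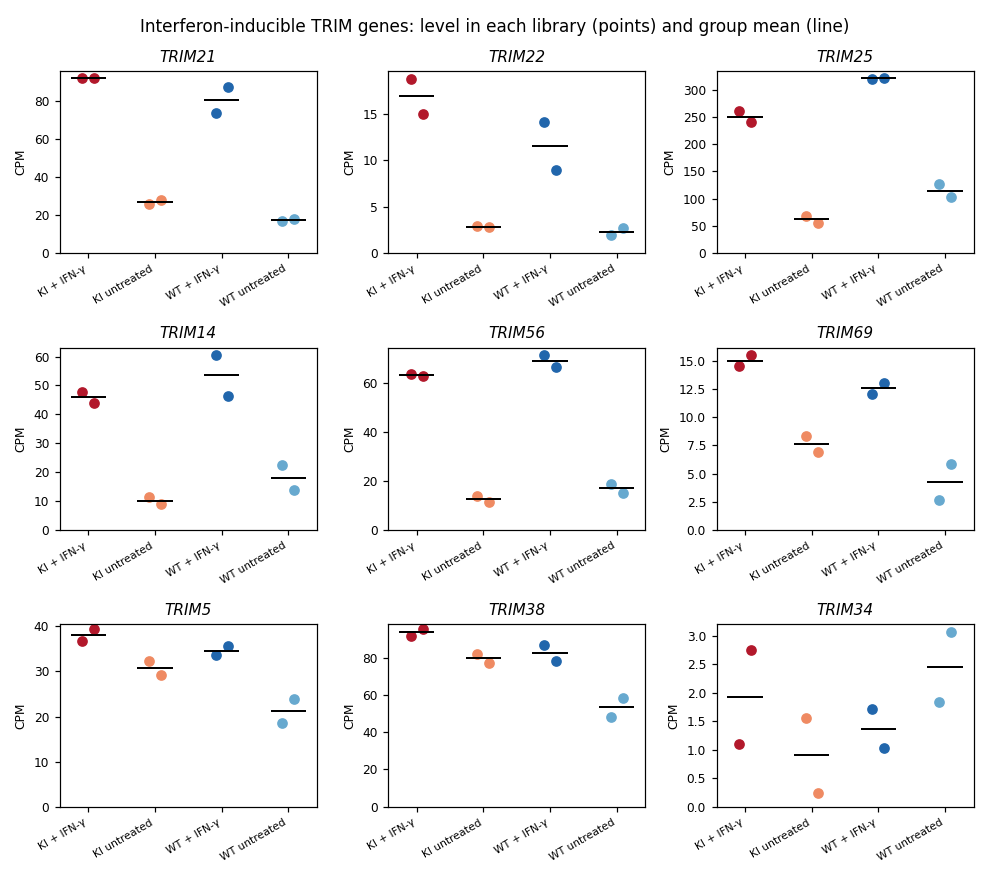
Level of the 9 tested interferon-inducible TRIM genes in CPM (y axis, from 0) in each library (points, 2 per group) with the group mean (line), for KI with IFN-γ, KI untreated, WT with IFN-γ and WT untreated from left to right. Treated libraries lie above untreated ones in both lines for every gene shown except TRIM34, which shares its exons with a readthrough transcript.

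TRIM34, a relative of TRIM5, could not be read alone, because 83.0% of its exon bases also belong to the readthrough gene TRIM6-TRIM34. TRIM6, TRIM34, TRIM5 and TRIM22 lie together on chromosome 11 (GRCh38, bases 5596109 to 5938619). TRIM22, on the plus strand, lies within the annotated span of TRIM5 on the minus strand. TRIM34 and TRIM6-TRIM34 together had 7.51 and 9.81 CPM in treated KI cells, against 3.57 and 4.72 CPM in untreated KI cells. They had 6.41 and 4.98 CPM in treated WT cells, against 2.07 and 4.16 CPM in untreated WT cells. The sum was higher with IFN-γ in every library of a line, with WT replicates close to overlapping. TRIM6-TRIM34 alone rose in WT cells, with 4.69 and 3.96 CPM with IFN-γ, against 0.230 and 1.10 CPM without (log2 2.71 ± 0.62, adjusted p = 0.00826). In KI cells it had 6.41 and 7.06 CPM with IFN-γ, against 2.01 and 4.47 CPM without (log2 1.04 ± 0.55, adjusted p = 0.141). Of its exon bases, 65.9% also belong to TRIM34 and 34.1% to TRIM6, so it could not be read alone either. TRIM34 had 1.72 and 1.02 CPM in treated WT cells, against 1.84 and 3.06 CPM in untreated WT cells. In KI cells TRIM34 had 1.10 and 2.75 CPM with IFN-γ, against 1.56 and 0.246 CPM without.

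Of the 38 other tested members, 15 rose and 6 fell in KI cells, and 9 rose and 2 fell in WT cells. That is 39.5 and 15.8% in KI cells, against 26.4 and 25.8% of all tested genes. In WT cells it is 23.7 and 5.26%, against 17.1 and 20.8%. Among the 21 tested RING and PRY-SPRY members without a COS box, inducible ones included, 13 (61.9%) rose in KI and 9 (42.9%) in WT cells, against 26.4 and 17.1% of all tested genes, and none fell, against 25.8 and 20.8%. With the GC and length trend removed, 8 were higher in KI and 7 in WT cells, and 1, TRIM7, was lower in each line. The shares of all tested genes above are from the fit without that removal, so these counts have no matching share here. TRIM28, the co-repressor that KRAB zinc-finger proteins recruit to chromatin, was the most abundant member per kilobase in all 4 groups. Its level was 237 ± 5.78 CPM per kb in treated and 91.1 ± 22.4 in untreated KI cells, and 288 ± 11.7 in treated and 160 ± 53.7 in untreated WT cells (SD, n = 2 each). Next in treated cells came TRIM21 and TRIM25, at 47.8 ± 0.107 and 43.7 ± 2.58 CPM per kb in KI cells and 41.9 ± 5.19 and 56.0 ± 0.199 in WT cells. Next in untreated cells was TRIM37, at 41.4 ± 1.36 CPM per kb in KI and 38.5 ± 3.58 in WT cells.

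TRIM28 had 689.2 and 713.4 CPM in treated KI cells, against 316.5 and 222.9 CPM in untreated KI cells. It had 878.3 and 829.4 CPM in treated WT cells, against 587.3 and 362.7 CPM in untreated WT cells. Untreated replicates of both lines lay far apart, and treated ones did not overlap with them. It rose by 1.38 ± 0.23 on the log2 scale in KI (adjusted p = 0.000981) and by 0.85 ± 0.23 in WT cells (adjusted p = 0.017). Without the GC and length trend the changes were 0.42 in KI and 0.34 in WT cells, and with spike-in scaling they were 0.85 in KI (adjusted p = 0.0593) and 0.01 in WT cells (adjusted p = 0.991). The WT call also ends without either treated replicate or the second untreated one. Of the other chromatin members, TRIM66 rose in both lines, by 0.99 in KI and 0.92 in WT cells (0.56 in KI and 0.57 in WT cells with the GC and length trend removed). TRIM33, a regulator of SMAD signalling, rose in WT cells by 0.60 (adjusted p = 0.0196, not called without either treated or the first untreated replicate) and had a change of 0.21 in KI cells (adjusted p = 0.325). TRIM24, a nuclear receptor cofactor, passed in neither line (−0.21 in KI and −0.27 in WT cells).

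TRIM62, a RING and PRY-SPRY ligase, was low in untreated cells of both lines. It had 1.83 and 1.00 CPM in treated KI cells, against 0.390 and 0.164 CPM in untreated KI cells, and 2.48 and 3.39 CPM in treated WT cells, against 0.230 and 0.752 CPM in untreated WT cells. Its log2 change was 2.37 ± 0.74 in KI (adjusted p = 0.0231) and 2.58 ± 0.71 in WT cells (adjusted p = 0.0187). The calls end with the GC and length trend removed and, in KI cells, without the first treated or the second untreated replicate. In WT cells they end without either treated replicate or the first untreated one. TRIM46, a COS-box protein that bundles microtubules in axons, had 3.004 and 2.75 CPM in treated KI cells, against 1.00 and 0.780 CPM in untreated KI cells. Its rise there was 1.69 ± 0.43 (adjusted p = 0.00884), not called without the second untreated replicate or with the GC and length trend removed. WT cells had 2.25 and 3.27 CPM with IFN-γ, against 1.24 and 1.45 CPM without, a log2 change of 1.03 (adjusted p = 0.0808).

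TRIM39, a PRY-SPRY ligase encoded in the major histocompatibility region, was called higher in KI cells but rests on few counts. It had 33 and 28 counts in treated KI cells, against 1 and 1 in untreated KI cells, a ratio of 24.6 after scaling with a 95% counting interval of 6.54 to 208.0 that covers counting error only. In WT cells the counts were 45 and 2 with IFN-γ, against 2 and 9 without, so the groups overlapped. The other IDs with the same counts, which make 5 IDs in all, have no GENCODE name, and 29.5% of its exon bases are shared with TRIM39-RPP21. Together these 2 annotations had 3.81 and 4.87 CPM in treated KI cells, against 1.56 and 0.0410 CPM in untreated KI cells. They had 2.90 and 4.57 CPM in treated WT cells, against 5.98 and 1.55 CPM in untreated WT cells, where the groups overlapped. The KI call of TRIM39 ends without any 1 of the 4 KI libraries, with the GC and length trend removed, and with spike-in scaling.

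The members that fell were spread over several architectures, some of which also hold members that rose. The NHL group had TRIM3 higher in both lines and TRIM2 lower in KI cells, and the COS-box group had TRIM46 higher and TRIM36 lower in KI cells. TRIM23, which carries an ARF GTPase domain and activates the kinase TBK1 in autophagy, had 37.8 and 32.2 CPM in treated KI cells, against 104.6 and 99.3 CPM in untreated KI cells. WT cells had 28.3 and 25.4 CPM with IFN-γ, against 46.8 and 64.3 CPM without. Treated libraries were all below untreated ones, and untreated KI cells were highest. It fell by 1.54 on the log2 scale in KI (SE 0.18, adjusted p = 0.000212) and fell by 1.05 in WT cells (SE 0.18, adjusted p = 0.00197). With the GC and length trend removed the values were −0.50 in KI (adjusted p = 0.00723) and −0.28 in WT cells (adjusted p = 0.0928).

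TRIM13, anchored in the endoplasmic reticulum where it acts in protein degradation, had 30.2 and 34.0 CPM in treated KI cells, against 66.9 and 60.8 CPM in untreated KI cells. WT cells had 28.04 and 33.4 CPM with IFN-γ, against 52.5 and 60.7 CPM without. Treated and untreated libraries did not overlap in either line. It fell by 0.99 in KI (SE 0.15, adjusted p = 0.000691) and fell by 0.88 in WT cells (SE 0.15, adjusted p = 0.00233) on the log2 scale. Without the GC and length trend the values were −0.42 in KI and −0.55 in WT cells, both with an adjusted p under 0.05.

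By the threshold 4 members fell in KI cells alone. TRIM2, an NHL-repeat ligase studied in neurons, had 90.5 and 75.3 CPM in treated KI cells, against 168.8 and 130.6 CPM in untreated KI cells. WT cells had 72.1 and 73.2 CPM with IFN-γ, against 77.7 and 89.0 CPM without. The untreated KI libraries stood above all others. The log2 change was −0.85 ± 0.16 in KI (adjusted p = 0.00193; −0.36 with the GC and length trend removed) and −0.20 ± 0.16 in WT cells (adjusted p = 0.366).

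TRIM36, a COS-box protein at microtubules, had 9.60 and 9.49 CPM in treated KI cells, against 17.3 and 21.8 CPM in untreated KI cells. TRIM37, a ligase that controls centrosome assembly, had 130.0 and 123.3 CPM in treated KI cells, against 175.1 and 183.4 CPM in untreated KI cells. TRIM59, a membrane-anchored ligase, had 60.7 and 50.9 CPM in treated KI cells, against 94.5 and 87.7 CPM in untreated KI cells. In these 3 genes the KI groups did not overlap. The log2 changes in KI cells were −1.03 for TRIM36 (adjusted p = 0.0049), −0.50 for TRIM37 (adjusted p = 0.00678, not called without the second treated KI replicate) and −0.71 for TRIM59 (adjusted p = 0.00243). In WT cells they were −0.27 for TRIM36, −0.09 for TRIM37 and −0.19 for TRIM59, none past the threshold. With the GC and length trend removed TRIM36 and TRIM37 did not pass, and TRIM59, the most AT-rich tested member at 34.4% GC, was higher with IFN-γ by 0.57 (adjusted p = 0.00427). Of TRIM59's exon bases, 19.8% are also exon of SMC4 on the opposite strand, and whether the authors' counting used strand is not given in the sources used here.

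GC content moved with these responses. Over the 47 tested genes, the Pearson correlation of GC content of the longest transcript with the log2 change was 0.50 in KI and 0.29 in WT cells, as a description over genes that share libraries. Once the trend of all genes in a library on GC and length was taken out, it was −0.02 in KI and −0.13 in WT cells. The median change of the 24 members with a GC content of 50% or more was 0.99 in KI and 0.55 in WT cells. That of the 23 members below 50% was 0.23 in KI and 0.14 in WT cells. With the trend removed, 9 of the 21 rises and 3 of the 6 falls in KI cells were not called, nor were 3 of the 17 rises and 1 of the 2 falls in WT cells. TRIM5, TRIM33, TRIM38 and TRIM59 were then higher in KI cells, TRIM4 and TRIM59 in WT cells, and TRIM7 and TRIM8 lower in both. Both the trend removal and spike-in scaling kept 5 of the rises in each line: TRIM21, TRIM22, TRIM25 and TRIM56 in both, TRIM14 in KI and TRIM6-TRIM34 in WT cells. They also kept the fall of TRIM13 in both lines and those of TRIM2 and TRIM23 in KI cells. TRIM6-TRIM34 shares its exon bases with TRIM34 (65.9%) and TRIM6 (34.1%), so its rise could not be read alone. What makes GC content differ between treated and untreated libraries was not tested.

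**Figure D3:**
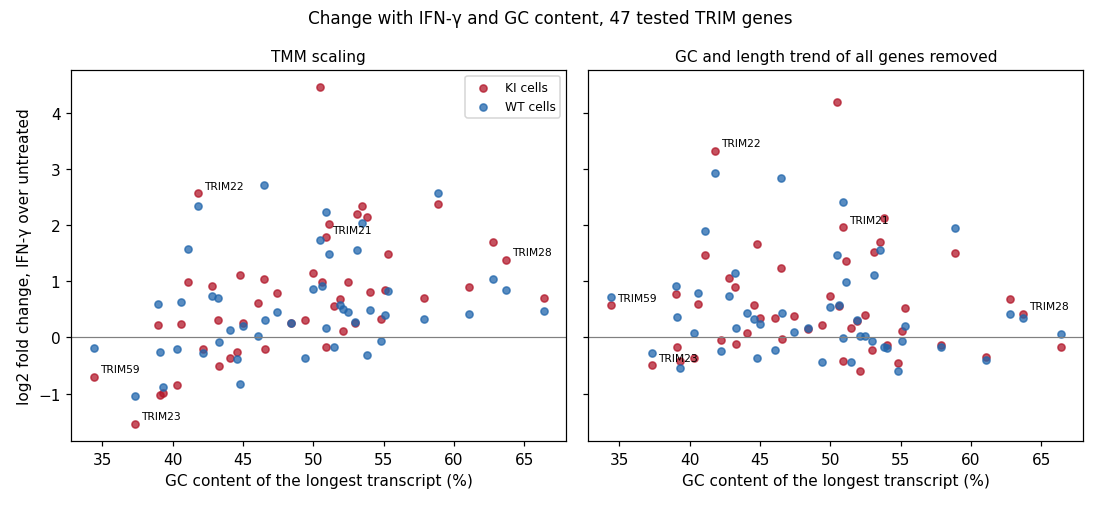
Log2 fold change with IFN-γ (y axis) against GC content of the longest transcript in percent (x axis) for the 47 tested TRIM genes, KI cells in red and WT cells in blue, with TMM scaling (left) and with the GC and length trend removed (right). TRIM59 sits below 0 on the left and above it on the right, TRIM23 moves closer to 0 but stays below it, and TRIM21 and TRIM22 stay high.

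The calls also depended on single libraries. Every leave-one-out fit kept 12 of 21 rises and 5 of 6 falls in KI cells, and 9 of 17 rises and both falls in WT cells. Without the first treated WT replicate, 12 members were called in WT cells in place of 19. A fit of the 4 libraries without plasma cell RNA leaves 1 library in each KI group, assumed to vary like the treated WT libraries. Its calls are therefore not given, and the part of this RNA in the TRIM values was not tested.

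The change with IFN-γ was then compared between the lines. No TRIM gene passed the test of the difference between the responses, which passed 0% of all tested genes in either direction (edgeR). At an unadjusted p under 0.05 there were 6 of the 47 members and 1119 of all tested genes. DESeq2 and limma-voom also called 0 members. TRIM25, at 0.53 ± 0.21 (KI minus WT response on the log2 scale, adjusted p = 0.688), and TRIM2, at −0.65 ± 0.23 (adjusted p = 0.688), were among the 6, with TRIM4, TRIM36, TRIM37 and TRIM59. For TRIM21 the difference was −0.44 ± 0.20 (adjusted p = 0.688) and for TRIM22 0.24 ± 0.41 (adjusted p = 0.872). So the 8 members higher in KI cells alone by the threshold (TRIM8, TRIM35, TRIM39, TRIM46, TRIM47, TRIM65, TRIM68 and TRIM72), and the 4 higher in WT cells alone (TRIM5, TRIM6-TRIM34, TRIM33 and TRIM38), were not shown to respond differently.

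Without IFN-γ, 5 members were higher and 2 lower in KI than in WT cells, or 10.6 and 4.26%, against 4.26 and 4.17% of all tested genes. GC content also moved with this difference. Its Pearson correlation with the log2 difference over the 47 tested genes was −0.484, and −0.293 with the GC and length trend removed. The median difference was −0.485 for the 24 members with a GC content of 50% or more and 0.311 for the 23 below 50%. With the trend removed these medians were −0.269 and 0.151, and the 5 and the 2 kept their calls. The cause was not tested. Higher in KI were TRIM2, TRIM6, TRIM21, TRIM23 and TRIM38. TRIM6, a PRY-SPRY ligase of the chromosome 11 group, had 10.7 and 10.6 CPM in untreated KI cells, against 5.84 and 5.51 CPM in untreated WT cells (log2 0.91 ± 0.22, adjusted p = 0.0362). The log2 differences of the others were 0.84 ± 0.16 for TRIM2 (adjusted p = 0.0168), 0.88 ± 0.17 for TRIM23 (adjusted p = 0.0183), 0.63 ± 0.14 for TRIM21 (adjusted p = 0.0297) and 0.58 ± 0.14 for TRIM38 (adjusted p = 0.0362). In all 5 the untreated KI libraries lay above the untreated WT libraries. Of the exon bases of TRIM6, 29.3% also belong to TRIM6-TRIM34, which averaged 3.24 CPM in untreated KI and 0.666 CPM in untreated WT cells.

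Lower in untreated KI cells were TRIM25 and TRIM8. TRIM8, a RING protein that binds the cytokine signalling inhibitor SOCS1, had 25.7 and 17.7 CPM in untreated KI cells, against 48.6 and 31.6 CPM in untreated WT cells (log2 −0.89 ± 0.23, adjusted p = 0.0478). TRIM25 differed by −0.89 ± 0.15 (adjusted p = 0.00987) and was the one call that held with spike-in scaling. TRIM28 stood just outside the threshold, at −0.82 ± 0.23 (adjusted p = 0.0565). Each of the 7 calls ends without at least 1 library: TRIM25 without the second untreated KI replicate, TRIM2 without the first untreated KI or first untreated WT replicate, TRIM23 without either untreated KI replicate, and TRIM6, TRIM8, TRIM21 and TRIM38 without any 1 library other than the second untreated WT replicate. The count of called members also moved with the library left out. Each such fit leaves 1 library in a group and has no share of all tested genes beside it, so that count is not read further.

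With IFN-γ, no member passed the test of KI against WT cells (edgeR), against 1.63% of all tested genes higher and 1.28% lower. At an unadjusted p under 0.05 there were 6 members: TRIM9, TRIM24, TRIM25, TRIM37, TRIM45 and TRIM66, against 2562 of the 16519 tested genes. DESeq2 and limma-voom each called 1, TRIM9, a COS-box ligase best known from neurons. It had 3.22 and 3.79 CPM in treated KI cells, against 7.33 and 7.63 CPM in treated WT cells, with no overlap (log2 −1.09 ± 0.28; adjusted p = 0.079 by edgeR, 0.0493 by DESeq2 and 0.0443 by limma-voom). In untreated cells it had 3.18 and 3.32 CPM in KI, against 6.21 and 4.26 CPM in WT cells (log2 −0.69, adjusted p = 0.157). With the GC and length trend removed, TRIM24 was higher and TRIM8, TRIM9, TRIM25 and TRIM28 lower in treated KI cells.

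**Figure D4:**
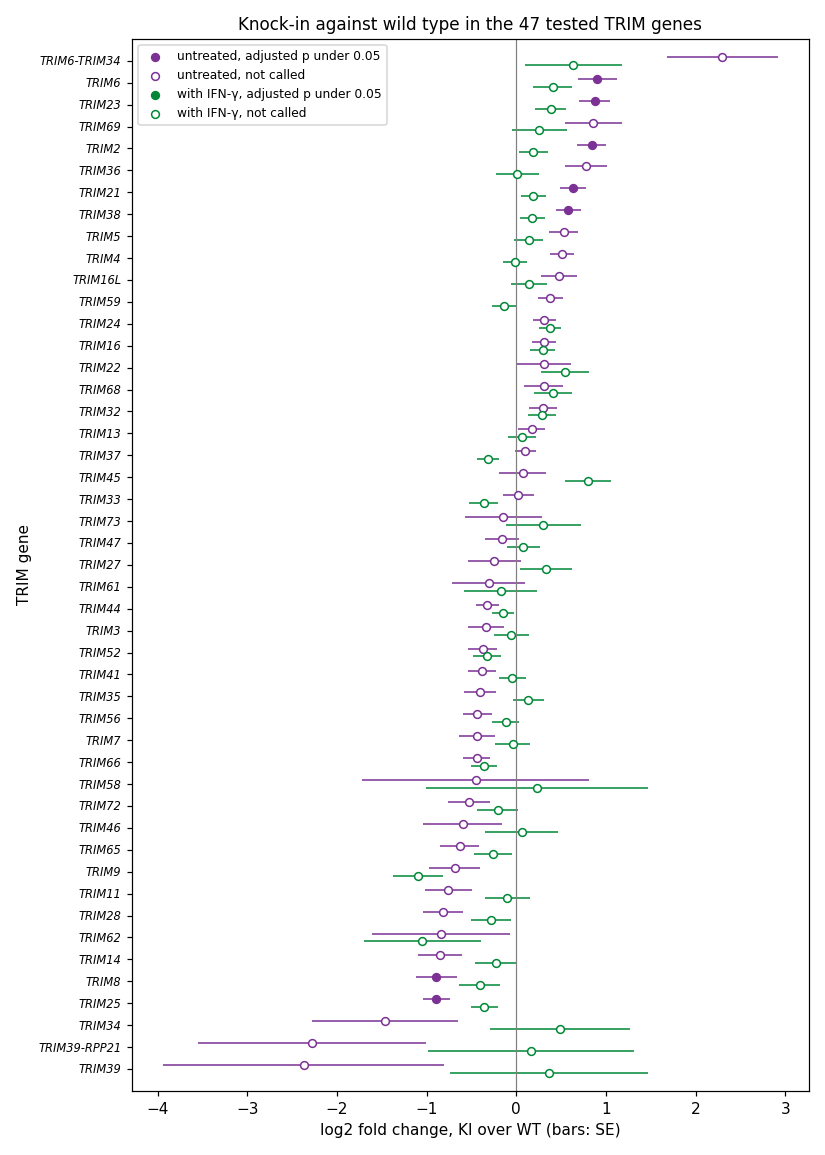
Difference of KI from WT cells in the 47 tested TRIM genes as log2 fold change (x axis), untreated in purple above treated with IFN-γ in green for each gene, bars showing the SE and filled points an adjusted p under 0.05. Filled points are the 7 called without IFN-γ, and none is filled with IFN-γ. Values of TRIM39, TRIM39-RPP21 and TRIM58 have wide SEs and few counts.

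Genes that work with TRIM proteins were read from lists of relatives, E2 enzymes and partners. Of 7 tested relatives with other symbols, 2 rose in KI (28.6%) and 1 in WT cells (14.3%), near the 26.4 and 17.1% of all tested genes. PML, the tripartite motif protein that builds nuclear bodies, averaged 21.99 CPM in treated and 4.05 CPM in untreated KI cells, and 22.9 CPM in treated and 4.71 CPM in untreated WT cells. Its log2 change was 2.44 ± 0.26 in KI (adjusted p = 0.000188) and 2.28 ± 0.26 in WT cells (adjusted p = 0.000478). It kept its call with the GC and length trend removed, at 1.39 in KI and 1.59 in WT cells, and with spike-in scaling.

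Of 11 tested genes on the list of E2 enzymes of TRIM ligases, 1, UBE2V1, rose and 8 fell in KI cells, and 0 rose and 6 fell in WT cells. The falls are 72.7% of the list in KI and 54.5% in WT cells, against 25.8 and 20.8% of all tested genes. The median log2 change was −1.03 in KI and −0.87 in WT cells. With the GC and length trend removed, 1 gene of the list, UBE2V1, was higher in each line. Lower were 2 in KI and 1 in WT cells, and the median was −0.11 in KI and −0.03 in WT cells. UBE2N, the E2 that builds signalling ubiquitin chains with UBE2V1 or UBE2V2, averaged 98.2 CPM in treated and 235 CPM in untreated KI cells, and 112.4 CPM in treated and 239.7 CPM in untreated WT cells. It fell by 1.26 on the log2 scale in KI (adjusted p = 0.000178) and fell by 1.09 in WT cells (adjusted p = 0.000519), and its values with the GC and length trend removed were −0.80 and −0.81 (adjusted p = 0.000227 in KI and 0.000291 in WT cells). With that trend removed, UBE2V2, UBE2D1, UBE2D3 and UBE2E1 passed in neither line, and UBE2W passed in KI cells at −0.58. UBE2E2 differed between the lines. It averaged 1.39 CPM in treated KI cells, against 13.3 CPM in treated WT cells, and 1.52 CPM in untreated KI cells, against 11.2 CPM in untreated WT cells. The log2 difference was −3.26 ± 0.37 with IFN-γ (adjusted p = 0.00184) and −2.90 ± 0.37 without (adjusted p = 0.00273).

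Of 12 tested signalling and effector partners, 6 rose and 2 fell in each line, or 50 and 16.7%, against 26.4 and 25.8% of all tested genes in KI and 17.1 and 20.8% in WT cells. With the GC and length trend removed, 5 partners were higher and 0 lower in each line, but these were not all the same genes as before. MAVS, ZC3HAV1, DDX58, TAB2 and TAB3 were the 5 in both lines. In KI cells only MAVS and ZC3HAV1 had been among the rises, and RNF135, IKBKG, VCP and TMEM173 no longer passed. In WT cells TAB2 was new, and IKBKG and VCP no longer passed. ZC3HAV1, which encodes ZAP, rose by 1.45 ± 0.13 in KI (adjusted p = 0.000111) and by 1.34 ± 0.13 in WT cells (adjusted p = 0.000225), and passed under both other scalings. MAVS, the mitochondrial adaptor of RIG-I signalling, rose by 1.297 ± 0.20 in KI (adjusted p = 0.000687) and by 0.97 ± 0.20 in WT cells (adjusted p = 0.00511), or by 0.75 and 0.54 with the GC and length trend removed. Both MAVS calls end with spike-in scaling, at 0.76 in KI (adjusted p = 0.0527) and 0.13 in WT cells (adjusted p = 0.743). DDX58, which encodes RIG-I, was higher in untreated KI than in untreated WT cells, at 53.2 against 26.3 CPM (log2 1.02 ± 0.23, adjusted p = 0.0283), a call that ends with spike-in scaling (0.74, adjusted p = 0.0796). Of 8 tested TRIM28 partners, 4 rose and 3 fell in KI cells, and 4 rose and 2 fell in WT cells. That is 50 and 37.5% in KI and 50 and 25.0% in WT cells, against 26.4 and 25.8% of all tested genes in KI and 17.1 and 20.8% in WT cells. In 1 of the WT falls, that of MAGEA6, the mean was 0 CPM in treated and 0.731 CPM in untreated WT cells. Removal of the GC and length trend left 2 partners higher and 1 lower in KI cells, and 2 higher and 0 lower in WT cells. CHD3, a remodeller that TRIM28 recruits, rose by 1.43 ± 0.23 in KI (adjusted p = 0.000781) and by 1.14 ± 0.23 in WT cells (adjusted p = 0.00422), or by 0.38 and 0.41 with the GC and length trend removed. The WT call of CHD3 ends with spike-in scaling (0.30, adjusted p = 0.487). SETDB1, the histone methyltransferase of the TRIM28 complex, rose by 0.78 in KI (adjusted p = 0.00201) and by 0.59 in WT cells (adjusted p = 0.0137), and passed in neither line with the GC and length trend removed or with spike-in scaling.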

How the data were processed

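Total RNA depleted of ribosomal RNA was sequenced in 8 libraries, 2 per group. The authors deposited estimated counts per Ensembl gene ID, made with Trimmomatic and kallisto on GRCh38 per the submitters' processing notes. Not given in the sources used here are the versions and the transcript set. GENCODE release 29 named 35583 of 40295 IDs and gave length and GC content of the longest transcript. Of tested genes, 92.4% had a GC value. The main test and the library sizes behind CPM did not use the 63 ERCC spike-ins. The estimated counts given per library include them, and spike-in scaling uses them.

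Estimated counts were rounded, filtered with filterByExpr (minimum count 10) and scaled by TMM. CPM are counts relative to the scaled library total. The quasi-likelihood F test of edgeR 4.0.16 (R 4.3.3) was fitted to all 8 libraries by group, with Benjamini-Hochberg adjustment over 16519 genes and a threshold of 0.05. Standard errors were taken from F. Shares of all tested genes are from this fit unless spike-in scaling is named. Counts of members or partners with the GC and length trend removed are therefore given without a matching share. Under the other settings, leave-one-out fits included, counts of called members also have no matching share unless one is printed beside them. The fit was tested on simulated data. Replicates are labelled as biological.

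Alternatives were DESeq2 1.42.0 (test and size factors), limma-voom (limma 3.58.1), upper-quartile factors, spike-in scaling, taking out a loess fit (span 0.3) of log2 CPM on GC and length in each library, no filter, at least 50 counts in 2 libraries, a replicate block, only the groups compared, only libraries without immunoglobulin RNA, and each library left out. Values per library were given for interferon-inducible members and for called members with the 8 largest rises and 8 largest falls of a comparison. TRIM9, TRIM28 and the partner genes given with values were chosen after their values were seen. Members, lists and motifs were chosen with earlier results of these data known. Per-kilobase levels use the longest transcript. A counting interval is exact binomial at 95%.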

Additional observations from a re-analysis of the deposited data

How the results depend on the processing

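The count of called members moved as follows. For the KI response (27) spike-in scaling gave 14, and for the WT response (19) leaving out 1 library gave 12 to 23. For KI against WT without IFN-γ (7) spike-in scaling gave 1, the DESeq2 test 12, no filter 18, removal of the GC and length trend 13, and only the groups compared 3, while leaving out 1 library gave 1 to 23. For KI against WT with IFN-γ (0) the DESeq2 test gave 1, limma-voom 1, removal of the GC and length trend 5, and only the groups compared 8, and leaving out 1 library gave 0 to 1. For the difference between the responses (0) no filter gave 1. In direction, TRIM5 in WT cells was −0.0805 (adjusted p = 0.776) and TRIM38 in WT cells −0.145 (adjusted p = 0.574) with spike-in scaling. TRIM59 in KI cells was 0.57 with the GC and length trend removed, and 0.57 also with the replicate block added. The cause of these changes was not tested, apart from fewer libraries or genes where the setting itself removes them.

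The replicate numbers were not shown to pair the libraries. Deviations of same-numbered libraries correlated at 0.27 between treated and untreated KI cells and at −0.00195 to 0.0738 between the other groups. With the replicate block, 12 members were called for KI against WT without IFN-γ, and with the block and the GC and length trend removed 13 were, and 5 with IFN-γ. With 2 libraries per group, changes within the replicate spread were not detectable.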

Other observations

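Several tested members lie side by side in the genome (GRCh38). TRIM47 and TRIM65 on chromosome 17 are 1759 bases apart on the same strand, and both had a log2 change with IFN-γ of 0.70 in KI cells, with 0.47 for TRIM47 and 0.33 for TRIM65 in WT cells. Neither was called in either line with the GC and length trend removed. TRIM7 and TRIM41 on chromosome 5 are 17205 bases apart on opposite strands. TRIM41 rose by 0.78 in KI and by 0.44 in WT cells (adjusted p = 0.0452), the WT rise being called in 1 of 8 leave-one-out fits and not with the GC and length trend removed (0.09, adjusted p = 0.616) or spike-in scaling (−0.38), while TRIM7 had a log2 change of 0.32 in KI (adjusted p = 0.211) and −0.07 in WT cells (adjusted p = 0.809). Whether neighbours share a response was not tested.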
